A study of Mus musculus with 4 samples.

Results

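This account covers 10 genes of the transforming growth factor beta (TGF-beta) axis and of matrix remodelling in the mouse kidney, measured in glomerulonephritis (GN) with and without captopril. They are the ligand Tgfb1, its type 2 receptor Tgfbr2, the matrix proteins Tgfbi and Fn1, the proteases Mmp2 and Mmp14, the tissue inhibitors of metalloproteinases Timp1, Timp2 and Timp3, and the cross-linking enzyme Lox. All probe sets that the platform annotation gives to these genes alone were taken on all 4 arrays, which came to 28 of 22690 probe sets and 10 of 12394 genes. Each gene was read from its brightest probe set by mean level, and the other probe sets are given beside it.

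Kidney RNA was hybridised to Affymetrix expression arrays, with 1 array for each of 4 groups of C57BL/6 mice aged 17 weeks and recorded as male. The GN+Captopril and GN+Water groups were injected intraperitoneally for 6 weeks, from about 8 weeks of age, with horse spleen apoferritin (10 mg on 5 days of each week) and bacterial lipopolysaccharide (100 µg, 3 times a week), a protocol that produces immune complex disease of the glomeruli. The Saline+Captopril and Saline+Water groups received 0.15 M sodium chloride. Captopril, an inhibitor of angiotensin-converting enzyme, was given in the drinking water at 100 mg per kg per day, and the Water groups drank without it. Kidneys were removed at 9 weeks. Groups held 6 mice, and the labels leave unsaid how many mice contributed to an array. With 1 array per group there is no replicate error and no test, so every difference below compares 2 arrays. A gene was counted as higher or lower where the 2 arrays stood at least 1.5-fold apart, or 0.585 on the log2 scale.

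TGF-beta is secreted in a latent form, is released by integrins, thrombospondin or proteases, and signals through the type 1 and type 2 receptors to Smad proteins. In the kidney it is known for driving the deposition of fibronectin and collagen in glomeruli and interstitium. Matrix turnover also depends on metalloproteinases that cleave matrix proteins, on TIMPs that block them, and on lysyl oxidases that join collagen and elastin chains. Angiotensin II, whose formation captopril blocks, is known to induce TGF-beta in kidney cells.

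Both water arrays stood apart from the others. On the array labelled GN+Water the X-inactivation transcript Xist was at 8.97, against 5.02 to 5.21 on the other arrays, and the Y-linked Eif2s3y was at 3.43, against 8.02 to 8.29, so this array does not match its label of male mice. The Saline+Water array had a median spike-in control level of 10.8, against 7.46 to 7.89 elsewhere, and its correlation with the other arrays over all probe sets (Pearson r 0.945 to 0.966) was below that among those arrays (0.982 to 0.994). Differences between the array labelled GN+Water and Saline+Water are also given against Saline+Captopril, which replaces the Saline+Water array only. The array labelled GN+Water stays in both comparisons, so its mismatch with the label applies to both. Of 9 kidney epithelium markers with a probe set, none was near background on any array, and the proximal tubule transporter Slc34a1 was at 13.2 to 13.4. Near background means at or below the 90th percentile of the negative-control probe sets of an array, which lay between 4.36 and 4.81.

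The 3 inhibitors of the set behaved differently across the arrays, and their start regions are shown because a single gene family is compared there. The sequences are RefSeq's, on GRCm38.p6, from 250 bases before to 50 bases after the annotated gene start, read 5′ to 3′ on the gene's strand. Timp1 lies at chrX:20869916-20870215 (plus strand), Timp2 at chr11:118355362-118355661 (minus strand) and Timp3 at chr10:86300162-86300461 (plus strand). Capitals mark GGGCGG, the core of the GC box bound by Sp factors, on either strand, and TGAGTAA, a variant of the AP-1 site.
Timp1: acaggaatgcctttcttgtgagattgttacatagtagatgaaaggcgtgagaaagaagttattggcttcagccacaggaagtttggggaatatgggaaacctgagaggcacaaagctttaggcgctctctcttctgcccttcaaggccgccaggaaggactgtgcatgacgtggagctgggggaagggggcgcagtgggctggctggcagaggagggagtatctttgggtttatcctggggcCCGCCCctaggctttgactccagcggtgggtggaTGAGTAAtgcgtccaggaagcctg
Timp2: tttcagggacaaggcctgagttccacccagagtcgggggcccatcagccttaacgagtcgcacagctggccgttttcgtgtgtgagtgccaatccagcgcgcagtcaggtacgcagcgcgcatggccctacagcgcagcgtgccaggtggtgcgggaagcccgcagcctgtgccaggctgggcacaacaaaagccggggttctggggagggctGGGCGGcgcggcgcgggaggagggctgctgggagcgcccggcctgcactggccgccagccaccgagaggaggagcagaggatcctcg
Timp3: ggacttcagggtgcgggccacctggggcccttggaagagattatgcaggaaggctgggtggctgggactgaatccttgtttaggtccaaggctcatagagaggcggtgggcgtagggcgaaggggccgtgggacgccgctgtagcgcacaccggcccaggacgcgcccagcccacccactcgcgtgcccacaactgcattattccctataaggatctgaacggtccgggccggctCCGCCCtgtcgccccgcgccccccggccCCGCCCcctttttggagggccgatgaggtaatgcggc
GC content was 55% for Timp1, 68.7% for Timp2 and 67% for Timp3, against a median of 52.7% over all 32851 promoters of the table. Timp1 and Timp2 held 1 GGGCGG each and Timp3 held 2 that do not overlap. The letters GGGCGG occurred in 35.7% of all promoters and in 6 of the 7 genes of the set that the table holds (Tgfb1, Tgfbi, Mmp14 and the TIMPs, but not Tgfbr2). TGAGTAA occurred in 2.68% of promoters and, in the set, in Timp1 alone, starting at base 27 after the gene start. The AP-1 consensus TGANTCA (7.81% of promoters) and the Smad-binding letters CAGACA (21%) were in none of the 7 windows. GGGCGG and TGAGTAA were picked after these sequences had been read. A match is a run of letters, not a measured binding site.

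Tgfb1, the ligand, had a log2 level of 7.26 on GN+Captopril, 7.58 on the array labelled GN+Water, 7.07 on Saline+Captopril and 6.80 on Saline+Water. Both GN arrays were above both saline arrays. Tgfb1 on the array labelled GN+Water was 1.71-fold above Saline+Water and 1.42-fold above Saline+Captopril, and GN+Captopril was 1.14-fold above Saline+Captopril. Tgfb1 has 1 probe set, so no other probe set checks these values.

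Tgfbr2, the receptor that binds TGF-beta and then recruits the type 1 receptor, was at 9.58 on GN+Captopril, 9.67 on the array labelled GN+Water, 9.43 on Saline+Captopril and 8.95 on Saline+Water. Saline+Water was the low array, and the other 3 lay within a range of 0.25. The 1.66-fold difference of the array labelled GN+Water over Saline+Water became 1.19-fold over Saline+Captopril. Its probe sets disagreed: a dimmer one was at 7.04 on GN+Captopril, 6.89 on the array labelled GN+Water, 6.83 on Saline+Captopril and 7.25 on Saline+Water, so that GN minus saline on water was −0.36 there, against 0.73 for the brighter probe set. A remaining Tgfbr2 probe set was near background on all 4 arrays.

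Tgfbi, a secreted matrix protein named for its induction by TGF-beta, was at 7.99 on GN+Captopril, 8.25 on the array labelled GN+Water, 7.81 on Saline+Captopril and 7.18 on Saline+Water. The level was 2.09-fold higher on the array labelled GN+Water, relative to Saline+Water, and 1.35-fold relative to Saline+Captopril. Saline+Captopril itself was 1.55-fold above Saline+Water. All 4 Tgfbi probe sets gave the same direction, with log2 differences of 0.80 to 1.69 for GN minus saline on water and of 0.07 to 0.25 on captopril.

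Fn1 encodes fibronectin, an early scaffold for other matrix proteins. It was at 8.12 on GN+Captopril, 8.92 on the array labelled GN+Water, 7.97 on Saline+Captopril and 7.51 on Saline+Water. The other 3 arrays lay below the array labelled GN+Water and within 0.61 of each other. Fn1 was 2.67-fold higher there, set against Saline+Water, and 1.94-fold against Saline+Captopril. GN+Captopril was 1.75-fold below the array labelled GN+Water and 1.11-fold above Saline+Captopril. The other Fn1 probe set was near background on all 4 arrays.

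**Figure D1:**
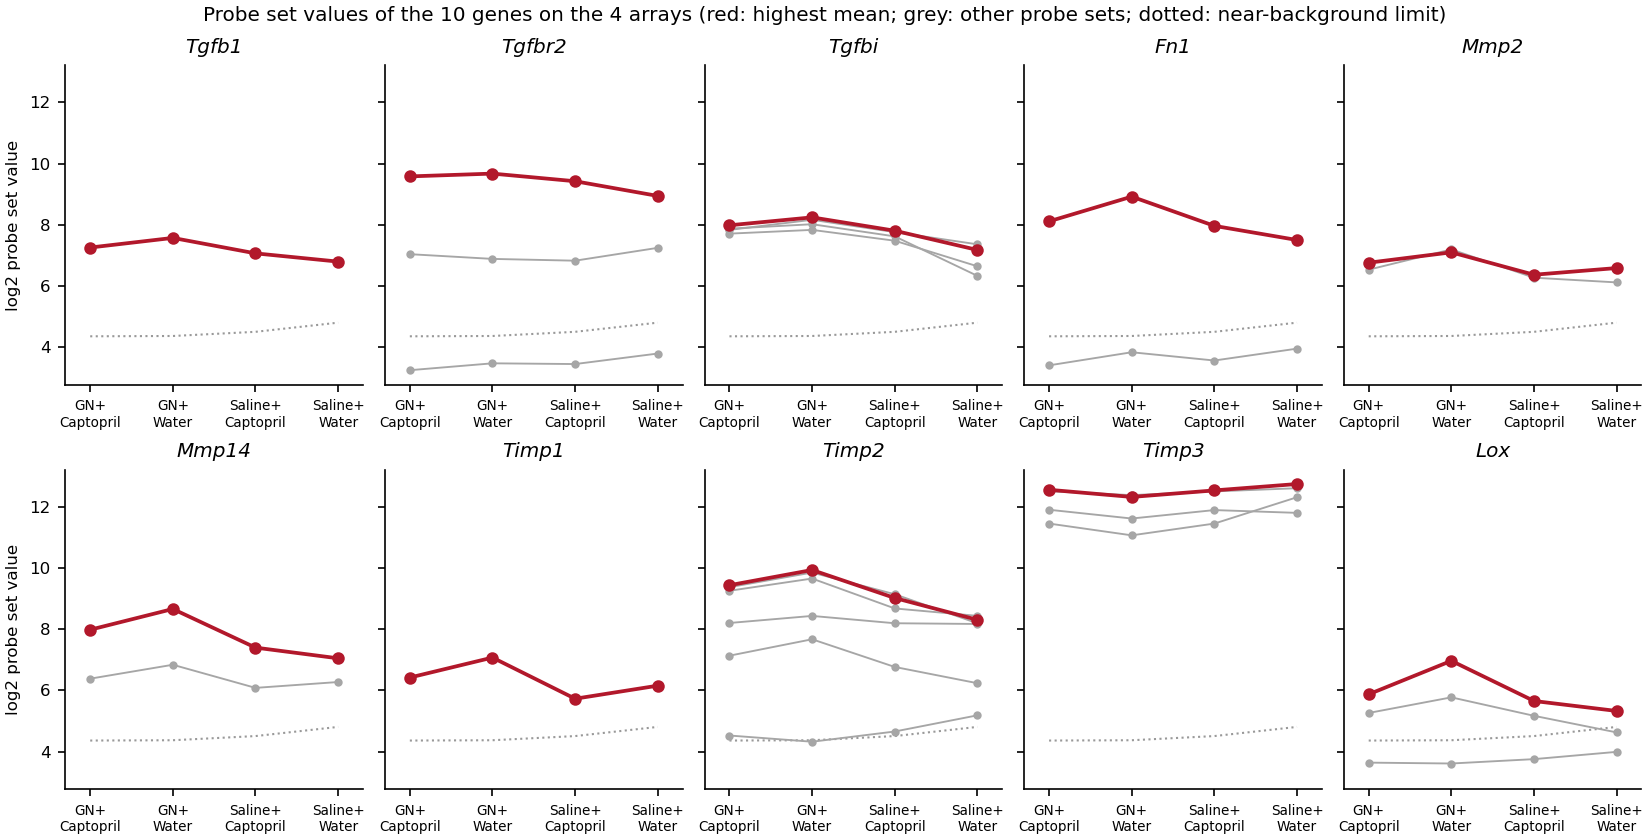
Log2 level of every probe set of the 10 genes (1 panel per gene) on the GN+Captopril, GN+Water, Saline+Captopril and Saline+Water arrays. Red marks the probe set with the highest mean, from which the gene was read, and grey the other probe sets. The dotted line is the near-background limit. Each point is 1 array and there is no error bar because each group has 1 array. The array labelled GN+Water holds the highest red point for 9 of the 10 genes, and Timp3, at 12.32 there, is the exception.

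Mmp14 is a membrane-bound collagenase that also activates pro-MMP2 in a complex with TIMP2. Its level was 7.98 on GN+Captopril, 8.66 on the array labelled GN+Water, 7.40 on Saline+Captopril and 7.05 on Saline+Water. The 2 GN arrays lay above the 2 saline arrays. Mmp14 on the array labelled GN+Water was 3.05-fold above Saline+Water and 2.40-fold above Saline+Captopril. GN+Captopril was 1.60-fold below the array labelled GN+Water, and its log2 difference from Saline+Captopril was 0.58, just under the limit of 0.585. The dimmer Mmp14 probe set gave differences of 0.56 on water and 0.30 on captopril, in the same directions.

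Mmp2, the secreted gelatinase that MMP14 activates, was at 6.77 on GN+Captopril, 7.10 on the array labelled GN+Water, 6.37 on Saline+Captopril and 6.59 on Saline+Water. The GN arrays were again the 2 highest, but the spread of all 4 was 0.73. Mmp2 on the array labelled GN+Water was 1.43-fold above Saline+Water, under the limit, and 1.66-fold above Saline+Captopril. The second Mmp2 probe set was 2.11-fold higher on the array labelled GN+Water, relative to Saline+Water, and 1.58-fold lower on GN+Captopril, relative to the array labelled GN+Water.

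The 3 TIMPs did not share a pattern. Timp1, a secreted inhibitor that is induced by many cytokines, was at 6.42 on GN+Captopril, 7.07 on the array labelled GN+Water, 5.73 on Saline+Captopril and 6.16 on Saline+Water. The saline arrays were the 2 lowest. It was 1.89-fold higher on the array labelled GN+Water, relative to Saline+Water, 2.54-fold relative to Saline+Captopril, and 1.61-fold higher on GN+Captopril than on Saline+Captopril. Timp1 was the only gene of the 10 past the limit for GN over saline under captopril. It lies on the X chromosome, and the array on which it was highest is the one with the Xist level of 8.97; the part of this in the result was not tested.

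Timp2, which blocks metalloproteinases and is also the adaptor through which MMP14 activates pro-MMP2, was at 9.43 on GN+Captopril, 9.93 on the array labelled GN+Water, 9.02 on Saline+Captopril and 8.30 on Saline+Water. The array labelled GN+Water was the highest and Saline+Water the lowest, 3.09-fold apart. Against Saline+Captopril the array labelled GN+Water was 1.88-fold higher, and Saline+Captopril was 1.64-fold above Saline+Water. Of 6 Timp2 probe sets, 5 had a positive difference for GN minus saline on water and 4 were at least 1.5-fold higher. The sixth differed by −0.86 and was near background on the array labelled GN+Water.

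Timp3, an inhibitor that binds to the matrix, was at 12.55 on GN+Captopril, 12.32 on the array labelled GN+Water, 12.53 on Saline+Captopril and 12.74 on Saline+Water. The array labelled GN+Water was the lowest, 1.34-fold below Saline+Water and 1.16-fold below Saline+Captopril, and the spread of all 4 arrays was 0.42. All 4 Timp3 probe sets were lower on the array labelled GN+Water, relative to Saline+Water, by log2 differences of −1.24 to −0.18. Under captopril, GN minus saline was 0.00 to 0.02 over the same probe sets, and for the brightest its sign turned under quantile normalisation and under median centring.

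Lox, lysyl oxidase, starts the cross-linking of collagen and elastin. It was at 5.87 on GN+Captopril, 6.97 on the array labelled GN+Water, 5.66 on Saline+Captopril and 5.33 on Saline+Water. The array labelled GN+Water stood alone, 3.11-fold above Saline+Water and 2.48-fold above Saline+Captopril. GN+Captopril was 2.13-fold below it and 1.16-fold above Saline+Captopril. A second probe set was at 5.26 on GN+Captopril, 5.77 on the array labelled GN+Water, 5.17 on Saline+Captopril and 4.63, near background, on Saline+Water. A remaining Lox probe set was near background on all arrays.

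Over the set, 8 of 10 genes (all but Mmp2 and Timp3) were at least 1.5-fold higher on the array labelled GN+Water, relative to Saline+Water, and 0 were lower. Of all 12394 genes, 15.1% were higher and 18.0% were lower in this comparison. The median difference was 0.99 for the 10 genes and −0.09 for all genes. After cyclic loess of the arrays the split over all genes became 17.1% higher and 13.5% lower, and 9 of the 10 genes were higher. Ranked over all genes, Lox, Timp2, Mmp14 and Fn1 were the highest, with 2.74%, 2.78%, 2.87% and 3.91% of genes having a larger difference.

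With Saline+Captopril as the baseline for the array labelled GN+Water, 6 of the 10 were higher (Fn1, Mmp2, Mmp14, Timp1, Timp2 and Lox) and the median was 0.82, where 5.53% of all genes were higher and 2.32% lower. Tgfb1, Tgfbr2 and Tgfbi lay under the limit there, at 0.50, 0.25 and 0.44. With GN+Captopril standing in for the array labelled GN+Water, against Saline+Water, 5 of 10 were higher (Tgfbr2, Tgfbi, Fn1, Mmp14 and Timp2), with a median of 0.58, where 12.8% of all genes were higher and 15.6% lower and the median of all genes was −0.087.

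**Figure D2:**
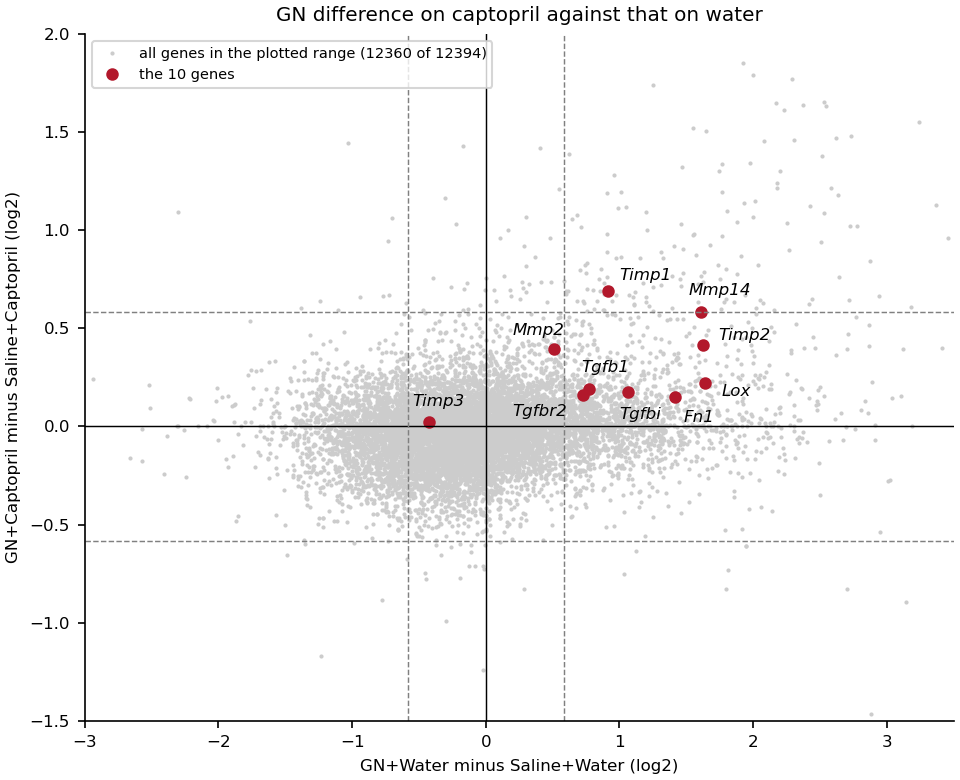
Log2 difference between GN and saline arrays on water (horizontal axis, the array labelled GN+Water minus Saline+Water) against that on captopril (vertical axis, GN+Captopril minus Saline+Captopril), 1 point per gene. The differences on water reach 1.64 for Lox, whereas those on captopril lie between 0.02 for Timp3 and 0.69 for Timp1.

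Under captopril the GN and saline arrays were closer. Of the 10 genes, 1 (Timp1) was at least 1.5-fold higher on GN+Captopril than on Saline+Captopril and 0 were lower, against 1.65% and 0.274% of all genes. The median was 0.20 for the set and −0.003 for all genes. Timp1, Mmp14, Timp2 and Mmp2 had the largest differences, with 1.19%, 1.65%, 2.85% and 3.13% of genes above them, while Fn1 and Lox, among the top on water, differed by 0.15 and 0.22. The GN difference on captopril minus that on water was −1.42 for Lox, −1.27 for Fn1, −1.21 for Timp2 and −1.03 for Mmp14, but −0.12 for Mmp2 and −0.23 for Timp1. The other probe sets turned this order for the proteases, at −0.26 for Mmp14 and −0.81 for Mmp2. These differences of differences have no error and were not tested. Their water side rests on the array labelled GN+Water, whose sex-linked transcripts oppose its label. It also rests on Saline+Water, with its spike-in level of 10.8.

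Between the GN arrays, 4 of the 10 genes were at least 1.5-fold lower on GN+Captopril, relative to the array labelled GN+Water (Lox, Fn1, Mmp14 and Timp1), and 0 were higher, against 3.70% and 2.69% of all genes. The median was −0.42 for the 10 and −0.003 for all genes. Lox was near the bottom of all genes, with 0.718% of genes having a lower difference, followed by Fn1 with 1.61% and Mmp14 with 2.55%. The values for Tgfb1 (−0.31), Tgfbr2 (−0.09) and Tgfbi (−0.26) lay inside the limit. This comparison involves the array whose sex-linked transcripts oppose its label, and no other GN array without captopril was analysed here.

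Between the saline arrays, 2 of the 10 genes were at least 1.5-fold higher on Saline+Captopril, relative to Saline+Water (Tgfbi and Timp2), and 0 were lower, against 11.6% and 13.4% of all genes. After cyclic loess the split over all genes was 12.6% higher and 10% lower. The median was 0.34 for the 10 and −0.07 for all. Timp1 (−0.43), Mmp2 (−0.22) and Timp3 (−0.21) were lower on Saline+Captopril. The second Mmp2 probe set differed by 0.15 and 1 of the 4 Timp3 probe sets by 0.09, in the other direction. Among the genes that were higher, Tgfbr2, Mmp14 and Timp2 each had another probe set that was lower (−0.42, −0.19 and −0.53). This comparison rests on the Saline+Water array with its spike-in level of 10.8.

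**Figure D3:**
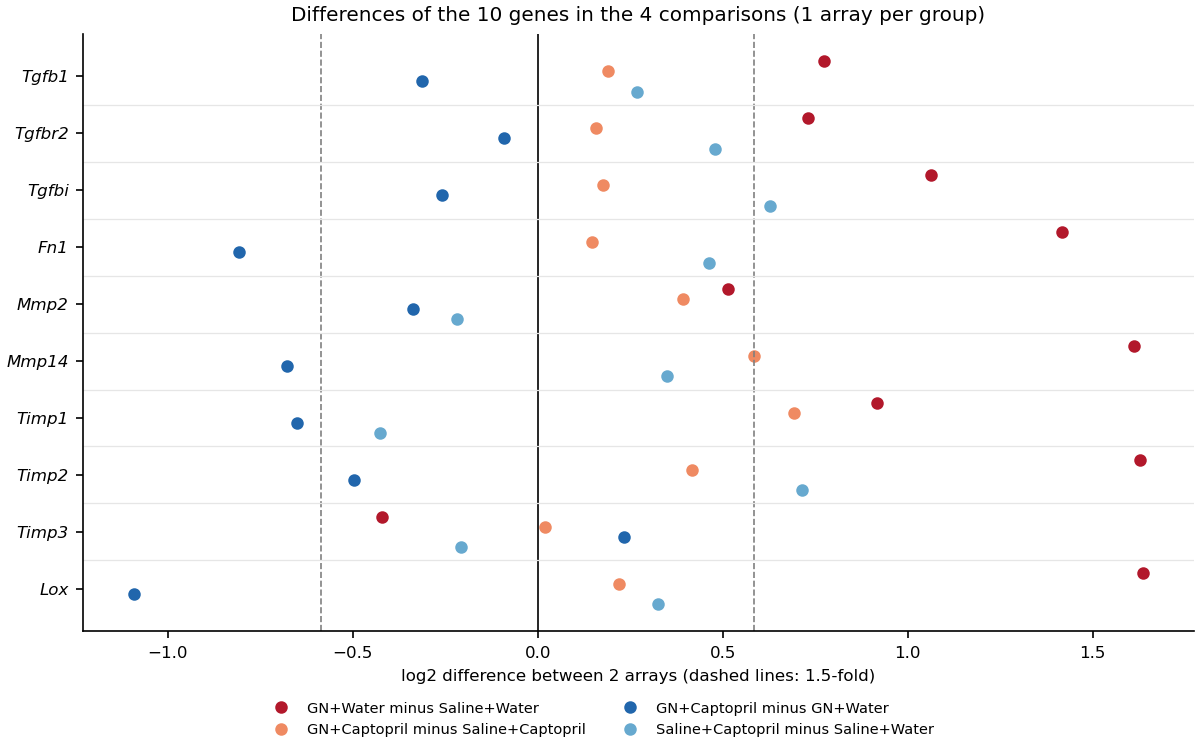
Log2 differences of the 10 genes (rows) in the 4 comparisons of 2 arrays (colours); dashed lines mark 1.5-fold. For GN against saline on water 8 points lie beyond the upper line, and for captopril against water within GN 4 points (Fn1, Mmp14, Timp1 and Lox) lie beyond the lower one.

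Ordered by level, 7 genes (Tgfb1, Tgfbr2, Tgfbi, Fn1, Mmp14, Timp2 and Lox) ran from the array labelled GN+Water through GN+Captopril and Saline+Captopril down to Saline+Water, an order that 10.7% of all genes followed. Mmp2 and Timp1 shared the GN+Water and GN+Captopril places but had Saline+Water above Saline+Captopril, as in 2.13% of genes. The split between these orders depended on the probe set. The dimmer Mmp14 probe set had Saline+Water (6.27) above Saline+Captopril (6.08), and the second Mmp2 probe set had Saline+Water (6.12) below Saline+Captopril (6.28). A dimmer Tgfbr2 probe set was highest on Saline+Water, at 7.25. Timp3 had Saline+Water highest and the array labelled GN+Water lowest, as in 11.3% of genes. Over all genes the Saline+Water array was the highest for 47.7% and the array labelled GN+Water for 24.2%.

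For the 6 genes whose range over the arrays was at least 1, the genes with the nearest pattern were taken by Euclidean distance over the 4 levels, each gene centred on its mean. Nearest were Rell1 to Tgfbi (distance 0.024), Arhgdib to Mmp14 (0.041), Akap12 to Timp2 (0.080), Socs2, an inhibitor of cytokine signalling, to Timp1 (0.085), Pla2g4a, cytosolic phospholipase A2, to Fn1 (0.10) and Tent5c to Lox (0.11). The next in order were Pgap2 and Slbp for Tgfbi, Srgn and Oasl2 for Mmp14, Cd34 and Hacd4 for Timp2, Ifitm3 and Mt2 for Timp1, Oas1a and Rdh11 for Fn1, and Cfi and Anxa3 for Lox. With 4 arrays, many genes can share a shape, so these names describe likeness only.

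The wider pathway was counted in the same way, and each list is given for the array labelled GN+Water against both saline arrays. Of all genes, 15.1% were higher and 18.0% lower against Saline+Water, and 5.53% and 2.32% against Saline+Captopril. On captopril the shares were 1.65% higher and 0.274% lower, and for captopril within GN 2.69% higher and 3.70% lower. Among 12 ligands, latency proteins and activators (Tgfb1 included), 5 were higher and 0 lower for GN over saline on water, 3 and 0 against Saline+Captopril, 0 and 0 on captopril, and 0 higher and 2 lower for captopril within GN. The other isoform Tgfb2 was at 5.71 on GN+Captopril, 6.58 on the array labelled GN+Water, 5.72 on Saline+Captopril and 5.39 on Saline+Water. Thbs2, a thrombospondin, was at 4.80 on GN+Captopril, 5.80 on the array labelled GN+Water, 5.02 on Saline+Captopril and 4.88 on Saline+Water. Both stood out on the array labelled GN+Water alone. Itgav, the integrin chain that helps release latent TGF-beta, was instead low on Saline+Water alone, at 9.41 against 10.78 to 11.28 elsewhere.

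Of 15 receptors, Smads and feedback proteins (Tgfbr2 included), 5 were higher and 1 lower for GN over saline on water, while 0 passed the limit in either direction on captopril or between the GN arrays. Tgfbr1, the partner receptor of Tgfbr2, was at 9.49 on GN+Captopril, 9.89 on the array labelled GN+Water, 9.54 on Saline+Captopril and 8.40 on Saline+Water. Smad4, the shared partner of the signalling Smads, was at 9.90 on GN+Captopril, 10.02 on the array labelled GN+Water, 9.85 on Saline+Captopril and 8.10 on Saline+Water. As with Tgfbr2, the Saline+Water array was the one apart, and against Saline+Captopril 0 of the 15 passed the limit.

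Among 19 genes that TGF-beta is known to induce (3 of the set among them), 8 were higher and 1 lower for GN over saline on water, 4 and 0 with the Saline+Captopril baseline, 2 and 0 on captopril, and 0 higher and 3 lower for captopril within GN. Ccn2, connective tissue growth factor, was at 9.46 on GN+Captopril, 10.27 on the array labelled GN+Water, 9.35 on Saline+Captopril and 8.69 on Saline+Water, a shape like that of Fn1. Klf10, an early response gene of TGF-beta, was 1.51-fold higher on GN+Captopril than on Saline+Captopril and was highest on GN+Captopril, at 7.11. Tgm2, transglutaminase 2, was the 1 lower gene: it was at 11.91 on Saline+Water and at 10.58 to 10.82 on the other arrays.

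Of 16 metalloproteinases (Mmp2 and Mmp14 included), 2 were higher and 3 lower for GN over saline on water, near the shares of 15.1% and 18.0% over all genes, and 3 were higher and 1 lower with the Saline+Captopril baseline. Mmp12, the macrophage elastase, was at 4.94 on GN+Captopril, 6.10 on the array labelled GN+Water, 5.14 on Saline+Captopril and 5.0 on Saline+Water. It and Mmp14 were the 2 higher genes on water, and also the 2 that were lower on GN+Captopril, relative to the array labelled GN+Water. On captopril 0 were higher for GN over saline and 1 was lower, Mmp13, which was near background on all 4 arrays. Mmp13 was also the 1 lower gene with the Saline+Captopril baseline. Of 11 ADAM and ADAMTS proteases 1 was higher and 1 lower on water, and 1 and 0 with the Saline+Captopril baseline. Adam10, the higher gene on water, was at 8.16 on Saline+Water against 9.43 to 9.77 elsewhere. With the Saline+Captopril baseline Adam10 differed by 0.34, and the 1 higher gene was a different one.

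Among 9 inhibitors of matrix proteases (the 3 TIMPs included), 3 were higher and 0 lower on water (Timp1, Timp2 and Reck, a membrane-anchored inhibitor), and 2 and 0 with the Saline+Captopril baseline. Reck was at 7.15 on GN+Captopril, 7.48 on the array labelled GN+Water, 6.91 on Saline+Captopril and 5.43 on Saline+Water, so Saline+Water was again the low array. Timp4 lay between 4.71 and 4.94 on all 4. Of 6 plasminogen system genes 0 were higher and 3 lower on water, and 0 and 1 with the Saline+Captopril baseline. Lower against both was Serpinf2, the inhibitor of plasmin, at 11.56 on GN+Captopril, 9.41 on the array labelled GN+Water, 11.42 on Saline+Captopril and 11.62 on Saline+Water. Both comparisons share the array labelled GN+Water, whose sex-linked transcripts oppose its label, and on captopril Serpinf2 differed by 0.14.

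Of 17 genes of collagen cross-linking and processing (Lox included), 3 were higher and 4 lower for GN over saline on water, near the shares of 15.1% and 18.0% over all genes. With the Saline+Captopril baseline the balance changed to 5 higher and 0 lower. The counts were 1 and 0 on captopril, and 0 higher and 4 lower for captopril within GN. Loxl1, the relative of Lox that acts on elastin, was at 8.51 on GN+Captopril, 8.92 on the array labelled GN+Water, 8.13 on Saline+Captopril and 8.21 on Saline+Water. Pcolce2, which enhances procollagen cleavage, was at 5.42 on GN+Captopril, 6.79 on the array labelled GN+Water, 4.60 on Saline+Captopril and 4.75, near background, on Saline+Water. Its difference was at least 3.94-fold on water and 1.77-fold on captopril. P4ha2, a subunit of prolyl 4-hydroxylase, was highest on Saline+Water, at 8.92, and lowest on the array labelled GN+Water, at 7.50.

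Of 17 fibronectin receptors and provisional matrix genes, 5 were higher and 2 lower on water, 3 and 0 with the Saline+Captopril baseline, and 0 and 0 on captopril. Sparc, a collagen-binding matrix protein, was at 10.95 on GN+Captopril, 11.74 on the array labelled GN+Water, 10.57 on Saline+Captopril and 10.43 on Saline+Water. Of 17 genes of the opposing bone morphogenetic protein arm, 4 were higher and 6 lower on water and 0 and 0 on captopril. With the Saline+Captopril baseline 2 were higher and 0 lower, so the 6 lower calls were seen against the Saline+Water array alone. The list mixes BMP ligands with antagonists such as Nog, 1 of the 6 lower genes, so its counts give no direction for the arm. Bmp2, 1 of the 4 higher genes, was near background on Saline+Water, where its fold was at least 1.21. Bmp7, which counters TGF-beta in kidney, was at 7.73 on GN+Captopril, 7.37 on the array labelled GN+Water, 7.81 on Saline+Captopril and 8.73 on Saline+Water, with Saline+Water the high array.

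**Figure D4:**
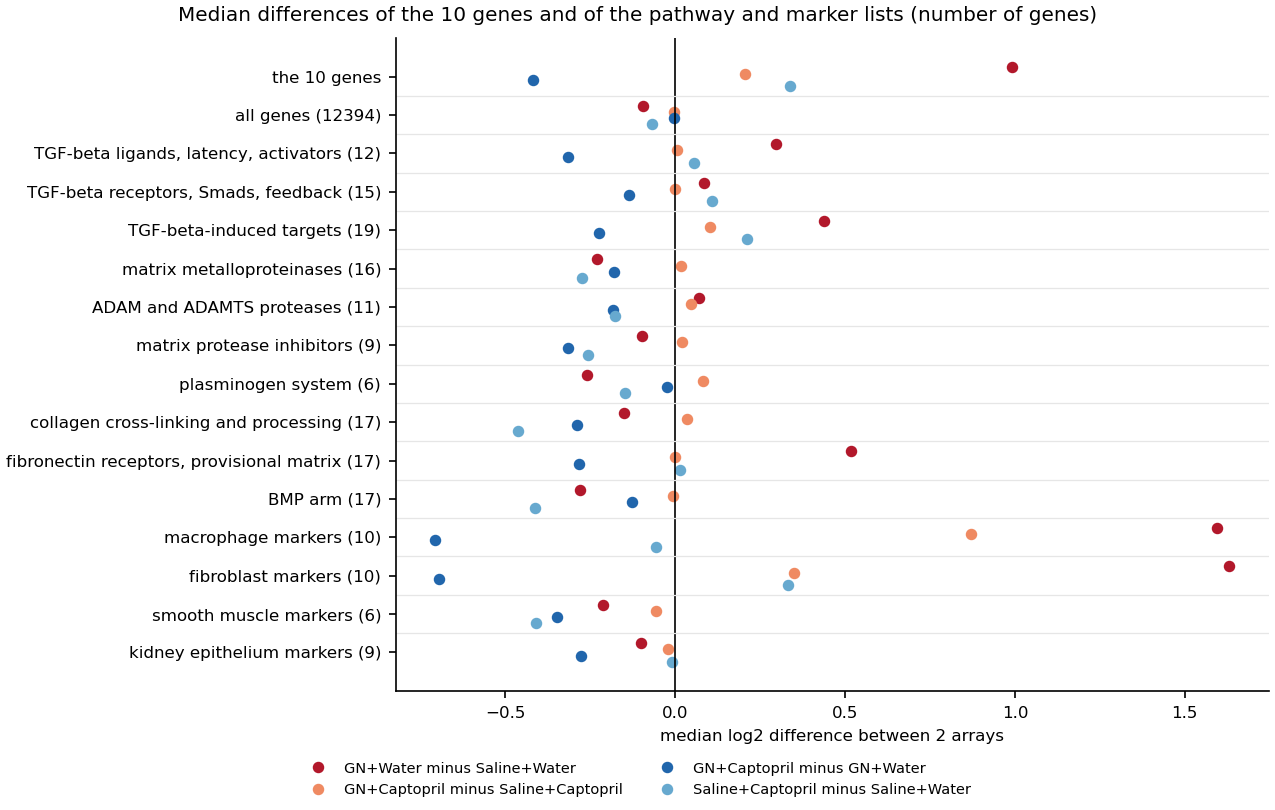
Median log2 difference of the 10 genes, of all genes, of 10 pathway lists and of 4 marker lists (rows, number of genes in brackets) in the 4 comparisons (colours). For GN against saline on water the median is 0.99 for the 10 genes, 1.60 for macrophage markers and 1.63 for fibroblast markers.

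Markers of some other cell types differed between the same arrays, though not always in step with the 10 genes. In whole kidney RNA, fewer cells of a type and less RNA per cell cannot be told apart. All 10 macrophage markers were at least 1.5-fold higher on the array labelled GN+Water, relative to Saline+Water (median 1.60) and relative to Saline+Captopril (median 1.59), and 8 of 10 were higher on GN+Captopril than on Saline+Captopril (median 0.87). Their summed level on the linear scale was 8571 on GN+Captopril, 13695 on the array labelled GN+Water, 2881 on Saline+Captopril and 2682 on Saline+Water, and none was near background. Of 10 fibroblast markers, 8 were higher on water (median 1.63), 9 with the Saline+Captopril baseline and 2 on captopril (median 0.35). Their sums were 3845 on GN+Captopril, 6417 on the array labelled GN+Water, 2848 on Saline+Captopril and 2171 on Saline+Water, with Fap near background on both saline arrays. Between the GN arrays, 6 of 10 macrophage and 5 of 10 fibroblast markers were lower on GN+Captopril, and 0 of either were higher. Over all genes the higher and lower shares were 15.1% and 18.0% on water and 5.53% and 2.32% with the Saline+Captopril baseline. They were 1.65% and 0.274% on captopril, and 2.69% and 3.70% for captopril within GN. The same shares stand beside the marker counts of the next paragraph.

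Other cell types moved less evenly. Of 6 smooth muscle markers 0 were higher and 1 was lower on water, against 1 and 0 with the Saline+Captopril baseline, and their sums were 1627 on GN+Captopril, 2356 on the array labelled GN+Water, 1496 on Saline+Captopril and 1841 on Saline+Water. Actg2 was near background on all 4 arrays. Lymphocyte and plasma cell markers had 4 of 9 higher on water, 5 with the Saline+Captopril baseline and 3 on captopril, with sums of 2369 on GN+Captopril, 7011 on the array labelled GN+Water, 767.5 on Saline+Captopril and 681.7 on Saline+Water. Most of the sum on the array labelled GN+Water came from Jchain, the joining chain of secreted antibodies, which was at 10.45 on GN+Captopril, 12.46 on the array labelled GN+Water, 6.02 on Saline+Captopril and 4.41, near background, on Saline+Water. The T cell markers Cd3e, Cd4 and Cd8a differed by −0.18, 0.16 and −0.29 on water and by −0.07, 0.00 and 0.20 on captopril. Cd3g, also a T cell marker, differed by 0.48 on water, 0.76 with the Saline+Captopril baseline and 0.96 on captopril. Kidney epithelium markers summed to 39867 on GN+Captopril, 44107 on the array labelled GN+Water, 42171 on Saline+Captopril and 40799 on Saline+Water, with 3 of 9 higher on water, 1 with the Saline+Captopril baseline and 0 on captopril. Of 5 adipocyte markers, 3 were higher and 1 lower on water, 1 and 0 with the Saline+Captopril baseline, and 3 and 0 on captopril, and their sums were 3341 on GN+Captopril, 3058 on the array labelled GN+Water, 2024 on Saline+Captopril and 1634 on Saline+Water. Adipoq, the fat cell hormone adiponectin, differed by 2.02 on water, 0.48 with the Saline+Captopril baseline and 1.15 on captopril. Its lowest level was 6.24, on Saline+Water. Lep was near background on all but the Saline+Water array. Of 5 adrenal markers, 0 were higher and 2 lower on water, and 0 and 0 with the Saline+Captopril baseline. On captopril 2 were higher and 0 lower, and the steroid enzyme Hsd3b1 differed by 1.43 there. Their sums were 387.5 on GN+Captopril, 241.7 on the array labelled GN+Water, 260.3 on Saline+Captopril and 368.3 on Saline+Water. The part of these cell markers in the differences of the 10 genes was not tested.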

How the data were processed

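The values are log2 probe set levels as the authors deposited them, and GCOS and RMA are named in the submitters' processing notes. The genome build is not given in the sources used here. Of 22690 probe sets, 20393 had 1 gene symbol, 691 several and 1606 none. Genes were read from the probe set with the highest mean, with no filter on low values. Differences of log2 levels were taken between 2 arrays and called at 1.5-fold. With 1 array per group no residual degrees of freedom remain (0), so no test was made. A value against a near-background level (27 negative-control probe sets, 90th percentile) gives a lower bound. The counting was tested on simulated data. Alternatives were quantile, median and cyclic loess scaling, probe set choice, a filter at the 40th percentile, fold 2 and other arrays as partner; 4 array swaps for single genes were added after seeing the data.

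The 10 genes and all lists were chosen with earlier results of these data known. Named pathway genes come from up to 3 per list with the largest absolute differences in each of the GN comparisons on water and on captopril, and neighbours are the nearest 3 genes. Mmp13 was named outside this rule, after its value was seen, as the 1 lower metalloproteinase on captopril. Python 3.11.15, pandas 2.3.3, numpy 2.4.6, R 4.3.3 and limma 3.58.1 were used.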

Additional observations from a re-analysis of the deposited data

Results flagged for a closer look

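For Timp3, GN minus saline was −0.42 on water and 0.02 on captopril, a difference of 0.44 on the log2 scale. Each side is 1 array against 1, the water side holds the 2 arrays that stood apart, and the difference was not tested. Neither value reached the fold limit. The value on captopril was −0.0056 after quantile normalisation, −0.0081 after median centring and 0.0214 after cyclic loess. Whether the signs on water and captopril were opposite therefore depended on the scaling.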

How the results depend on the processing

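Of 240 alternative values of single genes, 224 stayed within 0.585 of the value given, 16 moved further and 0 changed sign while called. Many of the 240 could hardly move. Tgfb1 and Timp1 have 1 probe set each, so averaging probe sets left them unchanged. Leaving out probe sets whose ID ends in _s_at or _x_at changed Tgfbi alone. The array medians lay between 6.93 and 6.99, so median centring shifted differences little. The count of 224 is therefore no measure of robustness. For GN against saline on water, the median of the 10 genes was 0.58 and 5 were higher with GN+Captopril standing in for the array labelled GN+Water, and 5 were higher at fold 2. For GN against saline on captopril, the median was 0.58 with 5 higher with Saline+Water as the baseline, 0.82 with 6 higher with the array labelled GN+Water standing in for GN+Captopril, and 0 passed fold 2. Between the GN arrays, 2 genes were lower with the mean of all probe sets and 1 at fold 2. Between the saline arrays, 1 was higher after quantile normalisation, 1 with a median of 0.058 with the mean of all probe sets, and 0 at fold 2. The mean of all probe sets gave 0.016 for Tgfbr2, 0.65 for Fn1, 0.89 for Timp2 and 0.80 for Lox on water. It includes probe sets near background. It also includes probe sets above background on all arrays, 1 of Tgfbr2 that differed by −0.36 and 1 of Timp2 that differed by 0.26 on water. Lox missed the filter on low levels, which left 7 of 9 genes higher on water. Over all genes on water, 1875 were higher and 2234 lower, against 686 and 288 with Saline+Captopril as the baseline, 968 and 627 at fold 2, and 1606 and 1255 after the filter. On captopril 204 were higher and 34 lower, against 1590 and 1929 with Saline+Water as the baseline, 686 and 288 with the array labelled GN+Water standing in for GN+Captopril, 152 and 17 after the filter, and 76 and 3 at fold 2. Within GN 333 were higher and 459 lower, against 119 and 119 at fold 2. Between the saline arrays 1433 were higher and 1655 lower, against 575 and 355 at fold 2, 1278 and 835 after the filter, and 1559 and 1245 after cyclic loess. No paired analysis was possible because each group has 1 array. Where results moved, the cause was not tested.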
